A study of Cynodon dactylon with 10 samples.

Results

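Among 28456 assembled leaf contigs of bermudagrass (Cynodon dactylon), a warm-season grass grown for lawns and grazing, 73 were raised by drought and stayed near the control level under salt, submergence and heat. They were chosen by their measured values, as deposited and without scaling between libraries. The mean of the 2 control libraries had to be under 500 RPKM, which is read density per contig length and library size. The log2 ratio of the drought mean to the control mean, with 1 RPKM added to each, had to be at least 1. The same ratio had to lie within 0.5 of zero for each of the other 3 stresses. The levels that follow therefore describe the choice and test nothing, except where values that the choice did not use are named.

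The plants were wild-type seedlings, 3 weeks old, held for 7 days under 1 of 5 conditions, and RNA was taken from their leaves. Drought seedlings got no water, salt seedlings got 400 mM NaCl, submerged seedlings stood under water, heated seedlings were kept at 42 °C, and control seedlings had none of these treatments. Each condition had 2 libraries, 10 in all, with a total of 751923 to 795078 RPKM per library, and read totals are unknown. Whether the 2 libraries of a condition came from separate plants is not stated, so every p-value rests on a spread between libraries that could be technical. In whole leaves, fewer cells of a type and less RNA per cell cannot be told apart.

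Water deficit in leaves is known to act through the hormone abscisic acid and through routes that do not need it. Both lead to closed stomata, to the build-up of compatible solutes such as proline, and to proteins that guard membranes and enzymes in drying cells, among them dehydrins and other late embryogenesis abundant proteins. Salt shares the osmotic side of this response, and heat engages chaperones, so genes that answer to water loss often answer to other stresses too. The files pair no contig with a gene name or a sequence, so none of these functions can be assigned to a contig here, and leaf markers could not be checked. Only 2 members are given by identifier, and the others are described by their place in the order of the set.

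Contigs raised by drought alone, in this sense, were few. Of 2128 contigs under 500 RPKM in the control with a drought log2 ratio of at least 1, the 73 made up 3.43%. Among the 2128, the limit on heat left out the most. Within 0.5 of the control lay 14.6% of them under heat, 24.8% under submergence and 63.6% under salt. Over all contigs these shares were 46.6%, 39.5% and 90.0%, so there the limit on submergence left out the most. A larger group of 202 contigs had a ratio of at least 1 under both drought and heat and stayed near the control under salt and submergence. Only 8 contigs were raised by drought and salt and near the control under submergence and heat, and 35 by drought and submergence and near the control under salt and heat. A further 88 contigs missed the choice through heat alone, with a heat ratio of 0.5 to under 1, and 94 missed it through submergence alone, with a ratio of -0.5 or lower.

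The 73 were contigs of low to moderate abundance with modest rises. Their drought mean had a median of 18.8 RPKM and ran from 3.775 to 355 RPKM. The median was 7.73 RPKM under salt, 6.565 under submergence, 7.085 under heat and 6.375 in the control, where the lowest mean was 0.725 RPKM and the highest 170 RPKM. No member was below 0.5 RPKM in the control, although 135 of the contigs raised by drought were. Of the members, 30 had 0.5 to under 5 RPKM in the control, 38 had 5 to under 50 RPKM and 5 had 50 RPKM or more. These were 3.88%, 3.47% and 4.03% of all drought-raised contigs in the same ranges.

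**Figure D1:**
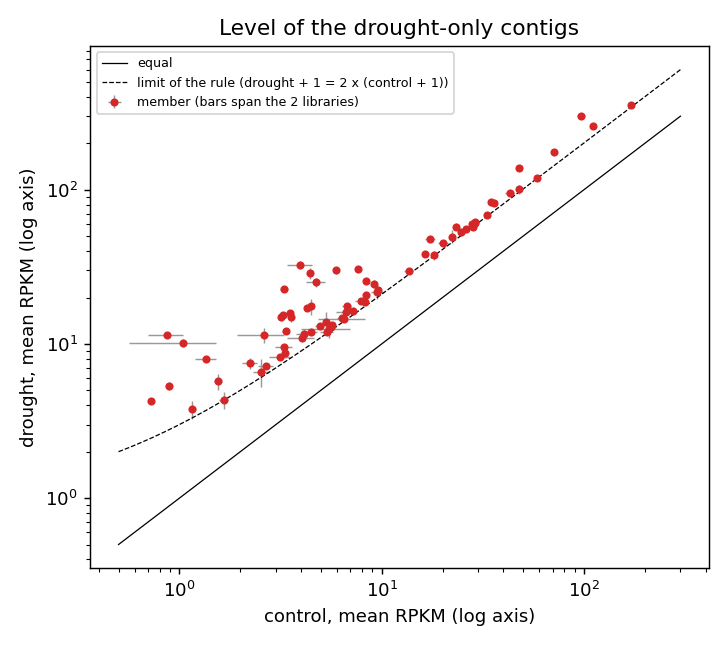
Mean RPKM under drought (vertical log axis) against the control (horizontal log axis) for the 73 members, with bars spanning the 2 libraries of a group. All members lie above the dashed limit of the choice, 21 of them with a log2 ratio between 1 and 1.1 and 22 with at least 1.5. They run from 0.725 RPKM in the control at the low end to 170 RPKM at the high end. All lie well above the solid line of equal levels.

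The drought log2 ratio had a median of 1.22 and a highest value of 2.76. In RPKM without the added 1, the drought mean was 2.02 to 13.1 times the control mean, with a median of 2.61. Only 7 members reached a ratio of 2, or 9.59%, whereas 600 of the 2128 drought-raised contigs did, or 28.2%. A low share was not particular to the members. It was 10.2% of the 88 contigs that missed through heat, 10.6% of the 94 that missed through submergence and 15.3% of the 202. Of the 35 raised by drought and submergence it was 2.86%, and of the 8 raised by drought and salt 50%. Among the 1569 contigs past 2 or more limits it was 33.8%. A ratio of at least 1.5 was found for 22 members, and 21 lay between 1 and 1.1. The size of the rise varied with the control level, with a median ratio of 1.68 among members of 0.5 to under 5 RPKM, 1.12 among those of 5 to under 50 RPKM and 1.22 among those of 50 RPKM or more. All drought-raised contigs in these ranges had medians of 1.60, 1.44 and 1.28.

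In each of the 73, both drought libraries lay above all 8 other libraries. The log2 ratio of the lower drought library to the highest other library was 0.28 to 2.24, with a median of 0.75, and it was at least 1 in 26 members. The next highest group was salt in 31 members, heat in 26, submergence in 14 and the control in 2. Together the members held 0.413% ± 0.00862 of all RPKM under drought, 0.185% ± 0.00482 under salt, 0.172% ± 0.000329 under submergence, 0.186% ± 0.00178 under heat and 0.163% ± 0.00181 in the control (SD, n = 2 each).

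**Figure D2:**
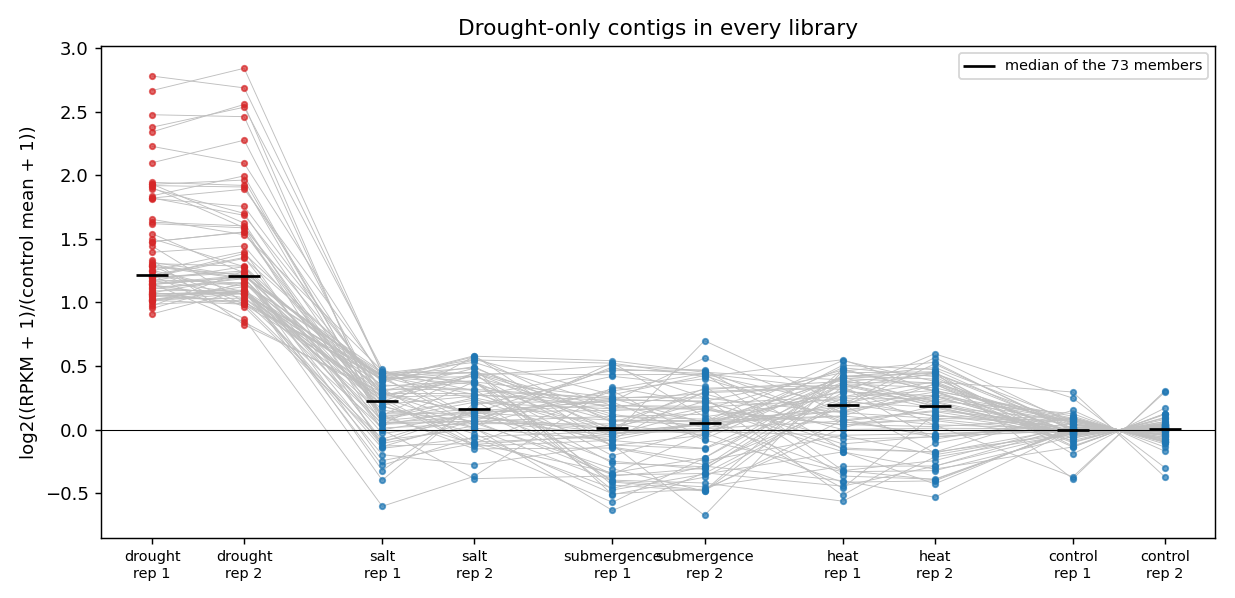
The log2 ratio of each library to the control mean (RPKM + 1) for the 73 members in all 10 libraries, with thin lines joining the values of a contig and black bars marking medians. Both drought libraries (red) stand above the other 8 (blue) for every member, as the choice requires in large part, and the groups other than drought overlap one another.

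The member with the largest rise over the control libraries was comp47045_c0_seq4. It had 11.84 and 11.04 RPKM under drought, 1.55 and 1.42 under salt, 0.83 and 0.94 under submergence, 1.01 and 1.40 under heat, and 0.70 and 1.04 in the control. The 2 drought libraries stood alone, and the other 8 ran together from 0.70 to 1.55 RPKM. Its mean was 11.4 ± 0.566 RPKM under drought and 0.870 ± 0.240 in the control (SD, n = 2 each), a log2 ratio of 2.73, and 13.1-fold without the added 1. Salt was the closest to the limit, with a ratio of 0.41.

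The most abundant member was comp58049_c0_seq1. It had 347 and 364 RPKM under drought, 186 and 187 under salt, 179.5 and 179 under submergence, 184 and 175 under heat, and 171 and 169.5 in the control. The 8 libraries without drought kept within 169.5 to 187 RPKM, and both drought libraries lay above them. Its mean was 355 ± 11.9 RPKM under drought and 170 ± 1.27 in the control (SD, n = 2 each), a log2 ratio of 1.05, against 0.13 under salt, 0.07 under submergence and 0.07 under heat. With libraries scaled to one another the drought ratio was 0.98, just under the limit, so this contig is a member only as deposited.

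Other steep rises were found in contigs of a few RPKM. The largest log2 ratio of all, 2.76, belonged to a contig with 30.41 and 34.46 RPKM under drought, 5.73 and 6.14 under salt, 4.64 and 4.62 under submergence, 3.48 and 3.38 under heat, and 4.50 and 3.40 in the control. Salt lay above the control there, with a ratio of 0.49 that just met the limit. The third and the fifth in this order, at 2.47 and 2.45, share a subcomponent of the assembly, which is the identifier up to its last part. The first of this pair had 22.86 and 22.61 RPKM under drought and 3.13 and 3.45 RPKM in the control, and the second had 26.53 and 30.97 RPKM under drought and 4.45 and 4.42 RPKM in the control. Both lay a little below the control under heat, at -0.33 and -0.41.

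Some abundant members were sharply separated relative to the spread between libraries, as the choice requires in part. The second most abundant member had 302 and 296 RPKM under drought, 104 and 109 under salt, 81.4 and 77.8 under submergence, 125 and 122 under heat, and 101 and 92.9 in the control, and the log2 ratio of its lower drought library to its highest other library was 1.24. A flat profile in the other groups was seen in the fifth most abundant member. It had 135 and 142 RPKM under drought, and its 8 other libraries lay between 46.43 and 51.54 RPKM, with 48.08 and 47.74 in the control. Its log2 ratio was 1.52 for drought, while salt gave 0.08, submergence -0.02 and heat -0.04. Other abundant members were less separated. The lower drought library over the highest other library gave log2 ratios of 0.50, 0.47 and 0.65 in the sixth, seventh and eighth.

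Under the other stresses the members could vary only within the limits of the choice. The log2 ratio of the members had a median of 0.18 under salt, 0.07 under submergence and 0.20 under heat, and was above zero in 59, 43 and 54 of the 73. Over all tested contigs the medians were 0.06, 0.33 and 0.14, and 60.4%, 65.0% and 56.5% were above zero. These values are unscaled, and scaling moved them down, to medians of 0.13 under salt, -0.16 under submergence and 0.01 under heat, beside 0, 0.10 and 0 over all tested contigs. Only 8 members had all 3 ratios within 0.25 of zero.

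Counts of calls for the members follow from the choice in large part and are given as a description. The test was limma on log2(RPKM + 1) after scaling, for contigs that reached 1 RPKM in 2 or more libraries, and a contig was called at a Benjamini-Hochberg adjusted p under 0.05. All 73 members passed the filter. All 73 were called higher under drought than in the control, where 30.7% of 26884 contigs were, and 61 were called at 2-fold or more, where 7.11% were. All 73 were also called higher under drought than under salt, submergence and heat, beside 28.6%, 36.2% and 34.5% of all contigs. Against the control, salt had 20 members called higher and 1 lower (13.7% and 12.2% of all contigs), submergence 3 higher and 31 lower (41.8% and 33.8%), and heat 7 higher and 22 lower (35.4% and 36.5%). Without scaling, salt had 26 members called higher and 0 lower (19.4% and 7.71% of all contigs), submergence 16 and 14 (53.5% and 26.2%), and heat 25 and 10 (44.6% and 29.0%). A ratio within 0.5 of zero therefore did not mean that no difference was called.

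Members of low level differed more between replicate libraries than abundant ones did. The median absolute log2 difference between the 2 drought libraries was 0.11 among the 49 members under 10 RPKM in the control and 0.06 among the 24 at 10 RPKM or more. For the control libraries these were 0.09 and 0.04. Under salt, submergence and heat the medians were 0.18, 0.13 and 0.13 for the low members and 0.06, 0.04 and 0.05 for the others. All tested contigs of 1 to under 10 RPKM in the control had medians of 0.13 under drought, 0.13 under salt, 0.12 under submergence, 0.12 under heat and 0.13 in the control. The largest difference in a member was 0.51 under drought, 0.61 under salt, 0.75 under submergence, 0.58 under heat and 0.69 in the control. Taken by replicate number, 65 members had a drought ratio of at least 1 in replicate 1 alone and 67 in replicate 2 alone, and the lowest single ratio was 0.69. The first drought library was the higher one in 36 of the 73 members, or about as often as not, and in 41.8% of all tested contigs.

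Choices made on a single replicate could be read in the libraries that they did not use. When the same limits were applied to the replicate 1 libraries alone, 78 contigs were chosen. In the replicate 2 libraries, 52 of these, or 66.7%, had a drought ratio of at least 1, beside 7.76% of all contigs, and 71 had at least 0.5. When the replicate 2 libraries were used for the choice, 75 contigs were chosen and 56 of them, or 74.7%, reached 1 in replicate 1, beside 7.86% of all contigs, with 74 at 0.5 or more. In each direction 1 contig was at or below zero. With 1 library against 1 there is no test of a single contig. These lists differ from the main set, since 49 of the 78 and 51 of the 75 were members. The shares therefore describe the 2 lists and not the members as a set. Replicate libraries may not come from separate plants, so whether the rises recur in other plants was not tested.

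The limits on the other stresses could be read in the unused libraries too. Of the 78, 48 kept all 3 other stresses within 0.5 in the replicate 2 libraries, as did 45 of the 75 in the replicate 1 libraries, beside 20.1% of all contigs in either. The contigs that met every limit in both replicates separately numbered 35. Single ratios in the unused libraries ran as far as -1.03 and 0.99 under submergence, -0.997 and 0.92 under heat, and -0.81 and 0.94 under salt.

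**Figure D3:**
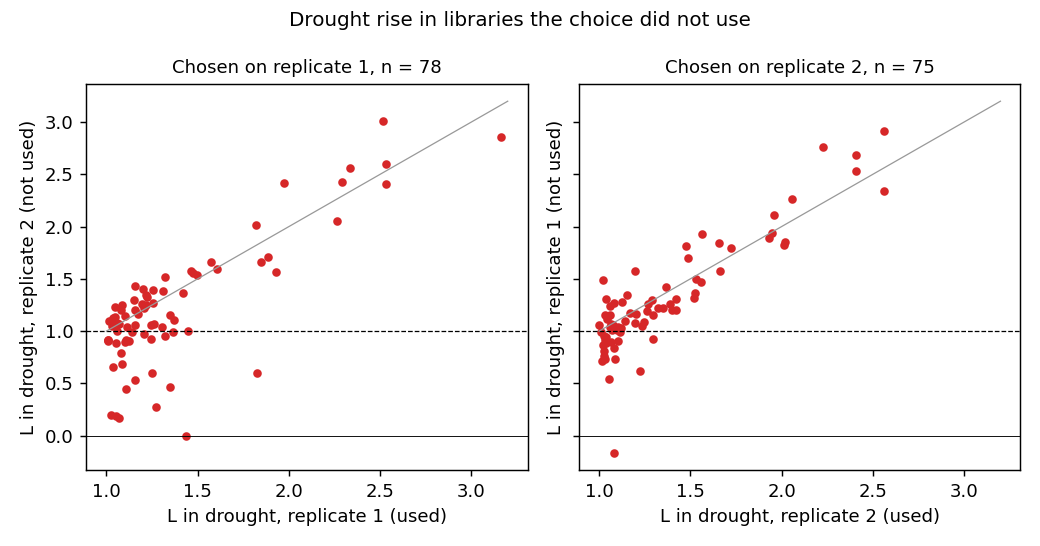
Drought log2 ratio (RPKM + 1, over the control) in the replicate not used for the choice (vertical) against the replicate used (horizontal), for 78 contigs chosen on replicate 1 (left) and 75 chosen on replicate 2 (right). Points above the dashed line, 52 and 56 contigs, reached 1 in the unused libraries, and the grey diagonal marks equal ratios in both.

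The edges of the set were not gaps in the data. The members closest to the drought limit had ratios of 1.001 and 1.002, and the contigs closest outside it had 0.995 and 0.991, while 35 contigs with quiet other stresses, these 2 included, lay between 0.9 and 1. The first of these members had 120 and 117 RPKM under drought and 60.28 and 57.30 in the control, and the first contig outside had 23.63 and 22.05 RPKM under drought and 9.61 and 12.32 in the control. For heat, the limit lay between members at 0.495 and 0.489 and contigs outside at 0.502 and 0.502. One of these excluded contigs had 192 and 183 RPKM under drought, 47.07 and 55.34 under heat, and 38.35 and 33.39 in the control. For salt, members reached 0.492 and the nearest contig outside was at 0.5004. For submergence these were 0.497 and 0.515 as absolute ratios. No contig of 500 RPKM or more in the control met the other limits.

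The contigs assembled beside the members were read next. Their calls are a description too, since their own values kept them out of the set. The 73 members fell in 69 subcomponents. A group of 32 members had no other contig of its subcomponent in the table, 43.8% of the members, beside 50.8% of all contigs and 45.3% of those raised by drought. The other 41 shared 37 subcomponents with 74 contigs that were not members, called companions here. Reads can be split between contigs of a subcomponent, so single values of members and companions are uncertain, and the 2 are not independent measurements.

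Most companions were also higher under drought. Limma called 53 of the 74 higher under drought than in the control, beside 30.7% of all contigs, and 7 lower, beside 30.2%. At 2-fold or more 30 were called higher, beside 7.11%. Their median fitted log2 fold change was 0.89, against 0 over all contigs tested. At least 1 companion was called higher in 34 of the 37 subcomponents. The same share was not worked out over all subcomponents, so this count has nothing to be read against. As unscaled ratios, 35 of the 74 reached 1, beside 7.49% of all contigs, and 50 reached 0.5, beside 19.9%.

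Sharing the drought rise with other contigs of the subcomponent was common among all drought-raised contigs. Counting each pair of a member and another contig of its subcomponent, members included, the other contig reached a drought ratio of 1 in 54.7% of 95 pairs. For all contigs raised by drought it did so in 46.5% of 3328 pairs, and for the 202 raised by drought and heat in 37.1% of 286 pairs. These shares were not tested against one another.

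Under the other stresses companions had no limit to keep, and the difference from members there is fixed by the choice. A companion with a drought ratio of 1 or more must by definition pass a limit elsewhere, and among the 35 this was a heat ratio of 0.5 or more in 20, a submergence ratio of 0.5 or more in 12 and a salt ratio of 0.5 or more in 7. A ratio of -0.5 or lower was found in 4 under heat, in 6 under submergence and in 2 under salt, and some of the 35 passed more than 1 limit. Of the 74 companions, 30 lay within 0.5 of the control under heat, 40 under submergence and 62 under salt, beside 46.6%, 39.5% and 90.0% of all contigs.

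**Figure D4:**
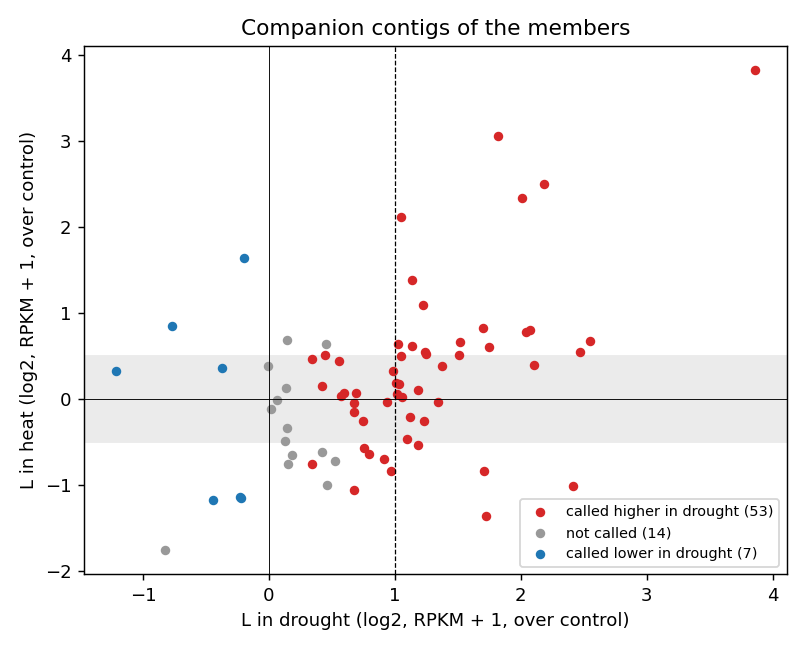
Log2 ratio to the control (RPKM + 1, unscaled) under drought (horizontal) and heat (vertical) for the 74 companion contigs, coloured by the limma call for drought against the control. The 53 called higher spread over heat ratios from below -1 to 3.83, and the grey band marks the limit of 0.5 that members had to keep.

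The companion with the largest drought ratio, 3.86, lay beside the seventh largest rise of the set. That member had 31.51 and 28.63 RPKM under drought, 4.05 and 6.55 under heat, and 5.76 and 6.13 in the control. A companion of it had 72.27 and 78.09 RPKM under drought, 73.39 and 74.20 under heat, and 4.86 and 3.66 in the control. The member was thus high under drought alone, whereas the companion was as high under heat as under drought. Under submergence the companion had 12.38 and 11.90 RPKM, also above its control, and the member had 6.46 and 6.55. The companion's drought fold change was 3.81 on the log2 scale (SE 0.11; limma adjusted p = 2.57e-08). A second companion had 2.73 and 4.54 RPKM under drought, 10.60 and 9.25 under heat, and 0.62 and 0 in the control. Its submergence libraries, at 10.53 and 8.92 RPKM, also lay above its drought libraries.

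The companion of the third and the fifth largest rises was low under heat. It had 15.36 and 15.02 RPKM under drought, 0.37 and 0.63 under heat, and 2.19 and 1.87 in the control. Its heat libraries lay below both control libraries, and its drought log2 fold change was 2.38 (SE 0.13; limma adjusted p = 9.90e-07). All 3 contigs of this subcomponent in the table were thus highest under drought.

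A few companions fell while the member beside them was higher. The largest fall belonged to a companion with 1.32 and 1.35 RPKM under drought and 3.26 and 5.56 RPKM in the control, a log2 fold change of -1.26 (SE 0.19; limma adjusted p = 0.000509). Another companion in the same subcomponent had 18.78 and 18.88 RPKM under drought, 60.94 and 58.26 under heat, and 32.34 and 33.10 in the control, a drought fold change of -0.84 (SE 0.06; limma adjusted p = 6.43e-06). In 2 of the 37 subcomponents a companion had a drought ratio of -0.5 or lower, and in 6 no companion reached 0.5.

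RPKM was also summed over all contigs of each subcomponent. Of the 37 subcomponents with companions, 21 had a summed drought ratio of at least 1, with a median of 1.12 over the 37, and 4 met every limit of the choice. By sums, 37 of 19459 subcomponents met the limits, of which 32 held a single contig and 36 held a member. The sum of a single contig is its own value, so these 32 were fixed by the choice. Of the 5 with several contigs, 4 held a member. Members made up a median of 36.3% of the summed RPKM of their subcomponent under drought and 28.8% in the control. This share was higher under drought in 28 of the 37, which follows in large part from the choice. It differed by no more than 10 percentage points in 27 and was higher under drought by more than that in 9.

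Some members met the limits whatever the scaling and whichever library was left out, with 1 RPKM added throughout. Other added amounts, which also changed the members, were not part of this count. Of the 73, 30 met every limit as deposited and under each of 3 scalings, 32 met them with each of the 10 libraries left out in turn, and 14 did both. The 14 were picked out after their values were seen, so they carry no test. Their drought ratio had a median of 1.47, against 1.16 in the other 59 members, and reached 2.16. Their control means ran from 0.885 to 71.5 RPKM. They include the seventh largest rise and the fourth and the fifth most abundant members. The fourth had 167 and 184 RPKM under drought, 71.44 and 78.00 under salt, 84.51 and 83.45 under submergence, 67.79 and 68.74 under heat, and 71.35 and 71.73 in the control. Neither of the 2 members given by identifier is among the 14.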

How the data were processed

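Leaf RNA of 10 libraries was deposited as 1 table of RPKM values, per the file headers, with 2 decimals. RNA came from a Qiagen RNeasy kit and libraries from standard Illumina methods, per the labels' protocols. Tools listed without roles, per the submitters' processing notes, are DESeq 1.18.0, HTSeq 0.6.1, TopHat2 2.0.12 and Bowtie2 2.2.3, and the assembly is not given in the sources used here. Depth is unknown, since only RPKM was deposited.

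The members and lists were chosen with earlier results of these data known. Groups came from sample titles. For tests, libraries were divided by a trimmed mean of log ratios (30% of ratios and 5% of mean levels trimmed at each end, no weights), and log2(RPKM + 1) was fitted with limma 3.58.1 (R 4.3.3) over all 5 groups, with 5 residual degrees of freedom and a variance trend. A fold change on that scale understates changes of low contigs. The filter left out 1572 contigs, 227 of them at 0 in every library. The fit was also run on simulated data with known changes under drought alone. That run used no scaling, so it cannot check the scaling, and its outcome is not given here. Identifiers were given for the member with the largest log2 ratio of its lower drought to its higher control library and for the most abundant remaining member under drought. Other contigs were picked by rank or as extremes after their values were seen. Values were handled with pandas 2.3.3 and numpy 2.4.6 and drawn with matplotlib 3.10.9, under Python 3.11.15. Alternatives covered scaling, pseudocount, limits, filter, threshold, replicate block and each library left out.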

Additional observations from a re-analysis of the deposited data

How the results depend on the processing

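The count of 73 members followed the limits: 34 contigs met them with the other stresses held within 0.4 and 113 within 0.6, and 38 with a drought ratio of at least 1.2 and 166 with at least 0.8. Which contigs were members depended more on the processing than the count did. Trimmed-mean scaling gave 78, of which 41 were among the 73, median-ratio scaling 74 with 37 shared, and upper-quartile scaling 56 with 30 shared. Adding 0.1 RPKM gave 60 with 44 shared, and adding 5 RPKM gave 88 with 32 shared. Leaving out each library in turn gave 67 to 87, sharing 54 to 72. By subcomponent sums, scaling gave 45 with 21 of the 37 shared, and the count was 33 to 43 with a library left out. The cause was not tested. The companions called higher under drought numbered 49 to 56 over 20 alternatives, beside 25.1% to 34.8% of all tested contigs. The 49 were among 68 companions tested, under a filter of 5 RPKM in 2 libraries. The contigs called higher at 2-fold numbered 1694 to 2308, with 46 to 72 of the members among them. In the unused replicate 2, 60 of 91 contigs reached a drought ratio of 1 with scaling and 48 of 64 with 0.1 RPKM added, and in the unused replicate 1, 47 of 60 and 55 of 81. Both contigs given by identifier kept their direction in all 20, which the choice fixes in large part. The drought log2 fold change was 2.58 to 3.53 for comp47045_c0_seq4 and 0.89 to 1.05 for comp58049_c0_seq1. The latter was thus 2-fold in some alternatives only. Replicate differences correlated between groups at -0.05 to 0.12, so the replicate numbers were not taken as pairs. A replicate block gave 1910 contigs higher at 2-fold, against 1911, and 54 companions, against 53.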
